A study of Homo sapiens with 4 samples.

Results

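The 19p13.2 zinc finger cluster is a 1.4 Mb stretch of the short arm of human chromosome 19 (hg19, chromosome 19 from 11.6 to 13.0 Mb) in which a tandem array of zinc finger genes lies between ordinary housekeeping genes. Its members here were all regions of 3 H4K20me3 lists whose midpoint fell in this window, 326 of 57082 regions in all. They comprised 26 of the 2836 peaks of proliferating cells (PRO), 200 of the 35535 peaks of replicative senescent cells (RS) and 100 of the 18711 regions called different between the states by DiffBind. The cells were IMR90, primary diploid human lung fibroblasts, at population doubling 32 (PRO) and at population doubling 86, after they had stopped dividing (RS). Both states came from plain serial culture at low oxygen, with no drug or transgene named in the labels. Each state was profiled by ChIP-seq with 2 antibodies against histone H4 trimethylated at lysine 20, 1 sample each, and the peaks common to both antibodies make up its list. The study reports significant overlap between the antibodies in both states, but far more of it in RS. How this bears on the PRO counts and on the RS to PRO ratios below was not tested. The lists hold positions only, without a score, a read depth or a direction of change, so no value below carries a replicate error. No difference between PRO and RS was tested here. The DiffBind regions are those that passed the study's own test between the states at a false discovery rate cutoff. The study describes independent experiments for the antibodies in RS, the labels do not tie samples to cultures, and the comparison rests on IMR90 cells alone.

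H4K20me3 is a mark of silent chromatin that is deposited mainly by the methyltransferase SUV420H2 and is often found together with H3K9me3. C2H2 zinc finger genes encode transcription factors that bind DNA through a row of fingers, each a short loop in which a zinc ion is held by a pair of cysteines and a pair of histidines. Many of them carry a KRAB domain, which recruits the silencing cofactor TRIM28, and many bind transposable elements. The family grew by tandem duplication, chromosome 19 holds many of its clusters, and the whole row of fingers of such a gene is usually encoded in its last coding exon.

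The window held 26 zinc finger genes, among them 1 read-through model that joins ZNF625 and ZNF20. In the longest coding transcripts of the other 25, between 3 and 19 fingers were counted, with a median of 13. Neighbouring fingers are joined by a linker with the residues TGEKP. The stretches below were read from the GRCh37 reference, 5′ to 3′ on the coding strand, with the linker codons in capitals. They are shown because the lists divide at these exons: ZNF44 stands for the usual case (RS and DiffBind), ZNF709 for the single last coding exon reached by a PRO peak, ZNF791 for RS without DiffBind, and ZNF564 for DiffBind without RS. KLF1, an erythroid transcription factor from another branch of the finger family, is shown whole for its last coding exon.
ZNF44, chr19:12384230-12384481, minus strand: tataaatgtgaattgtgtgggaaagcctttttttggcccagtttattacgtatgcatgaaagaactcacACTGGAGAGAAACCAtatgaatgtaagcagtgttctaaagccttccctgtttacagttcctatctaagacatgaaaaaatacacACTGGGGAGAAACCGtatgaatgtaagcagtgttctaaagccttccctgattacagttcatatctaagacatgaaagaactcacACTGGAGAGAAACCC
ZNF709, chr19:12574834-12575001, minus strand: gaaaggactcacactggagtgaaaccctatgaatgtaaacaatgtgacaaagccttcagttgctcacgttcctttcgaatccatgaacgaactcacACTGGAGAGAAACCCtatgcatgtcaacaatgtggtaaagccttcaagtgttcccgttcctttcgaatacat
ZNF791, chr19:12739157-12739408, plus strand: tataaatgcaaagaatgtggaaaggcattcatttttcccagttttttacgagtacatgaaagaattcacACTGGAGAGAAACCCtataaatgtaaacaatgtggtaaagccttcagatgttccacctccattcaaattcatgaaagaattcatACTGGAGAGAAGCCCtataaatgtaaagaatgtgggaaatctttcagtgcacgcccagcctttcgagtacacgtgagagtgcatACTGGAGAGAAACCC
ZNF564, chr19:12638250-12638501, minus strand: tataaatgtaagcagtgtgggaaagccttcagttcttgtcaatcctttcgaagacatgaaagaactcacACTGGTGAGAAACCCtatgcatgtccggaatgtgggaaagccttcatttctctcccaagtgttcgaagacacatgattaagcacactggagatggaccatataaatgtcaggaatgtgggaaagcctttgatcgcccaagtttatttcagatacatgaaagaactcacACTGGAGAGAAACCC
KLF1, chr19:12995702-12995874, minus strand: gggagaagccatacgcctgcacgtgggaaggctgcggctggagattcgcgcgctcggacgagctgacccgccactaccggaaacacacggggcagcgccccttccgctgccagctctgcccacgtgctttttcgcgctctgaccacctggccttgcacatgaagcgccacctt
In ZNF44 and ZNF791 the linkers recurred every 84 bases, the length of 1 finger with its linker. The KLF1 exon held no whole codon string of this kind, but its first whole codons are those for EKP. A linker split at its exon junction would not be counted.

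To ask how far the mark reached in each state, the covered bases of the window were compared. PRO peaks covered 21.2 kb, or 1.52% of the window. RS peaks covered 378.6 kb, or 27.0%, a ratio of 17.8 to PRO. DiffBind regions covered 399.1 kb, or 28.5%. Both states lay above their own genome-wide level here: the covered share was 12.6 times that of the genome in PRO and 20.3 times in RS. Against the rest of chromosome 19 the ratios were 2.20 in PRO, 3.60 in RS and 4.54 in DiffBind. RS regions were also longer. The median length was 601 bp in PRO, 1401 bp in RS and 2901 bp in DiffBind, and the longest regions spanned 2801, 9401 and 19001 bp. With regions under 1000 bp left out, 7 PRO peaks and 136 RS peaks remained and the RS to PRO ratio was 30.9.

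The mark kept to the zinc finger array. From the first base of ZNF627 to the last base of ZNF490, a span of 1081 kb, lay all 26 PRO peaks, 196 of the 200 RS peaks and 97 of the 100 DiffBind regions. RS peaks covered 34.7% of the array and PRO peaks covered 1.96%. In the 70.2 kb before the array, which hold ECSIT, CNN1, ELOF1 and the body of ZNF653 as far as it enters the window, no list had a region. In the 249.1 kb after it, RS peaks covered 1.37% and PRO peaks none. No region crossed the window edges. The nearest regions outside lay 345 kb (PRO), 139 kb (RS) and 139 kb (DiffBind) before it and 3043, 447 and 345 kb after it.

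**Figure D1:**
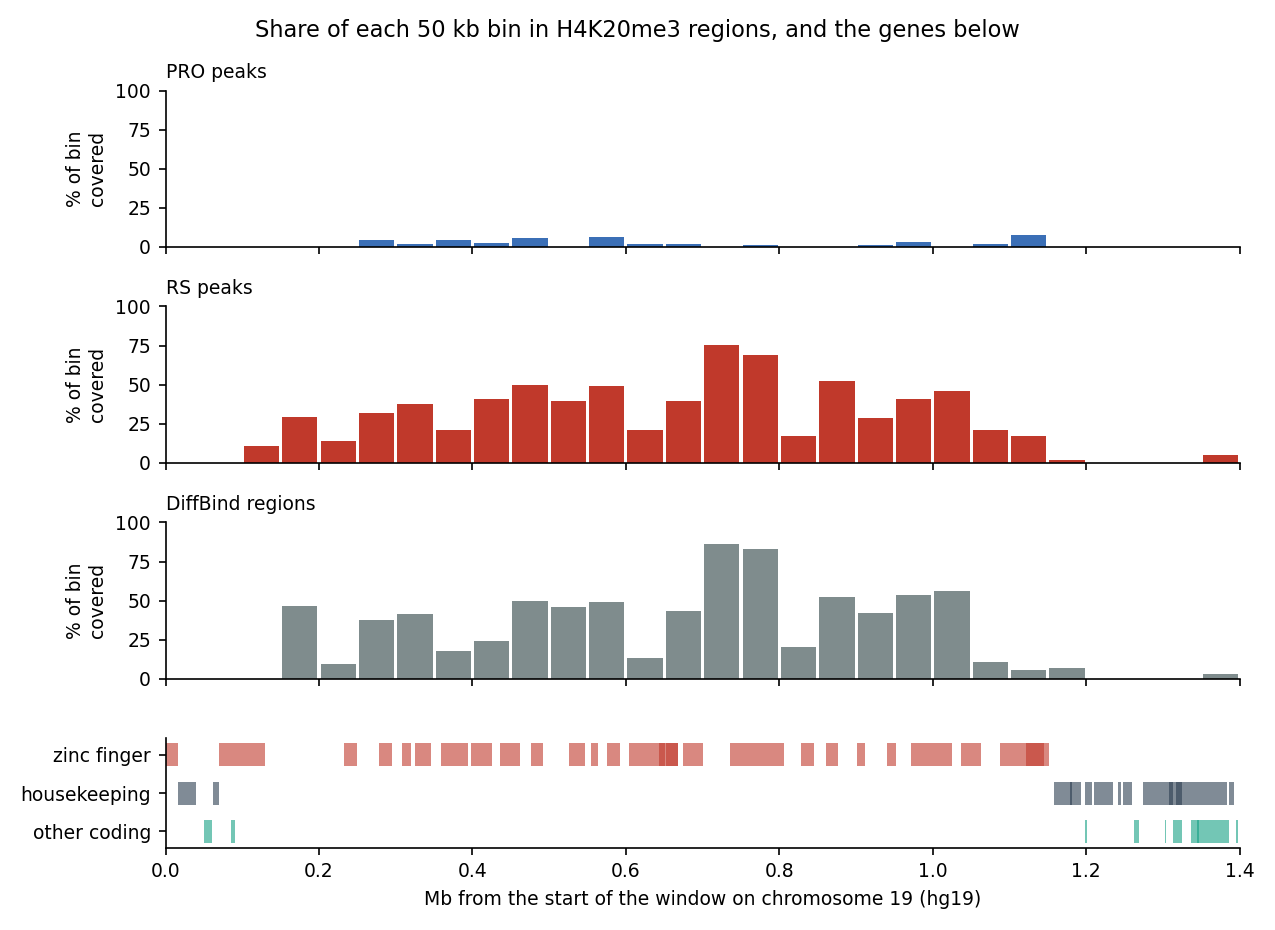
Share of each 50 kb bin covered by PRO peaks, RS peaks and DiffBind regions (vertical axes, %) along the window (horizontal axis, Mb from its start), with the bodies of zinc finger, housekeeping and other coding genes as bars below. RS coverage runs across the zinc finger array, both in and between its genes. It is highest at 75.6% of the bin centred at 0.725 Mb, most of which lies between ZNF136 and the ZNF44 gene model. After the array it is 1.60% or less in all bins except the last, at 5.21%. The highest PRO bin reaches 7.60%.

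Within the array the RS peaks formed long stretches. Joining RS peaks less than 5000 bp apart gave 34 stretches, 17 of them of 10 kb or more. The longest ran 119.6 kb from ZNF136 into ZNF44 (chr19:12278801-12398401), held 43 RS peaks and was 71.4% covered. The next was 33.0 kb long and lay over ZNF709 and ZNF564. In PRO the same joining gave 21 stretches, of which the longest was 5.60 kb and none reached 10 kb. The widest gap without an RS peak was 204.4 kb (chr19:12761202-12965600). It lay beyond the array and held 14 named coding genes whole, none of them a zinc finger gene, from WDR83 to RTBDN. The next widest, of 35.2 kb, lay within the ZNF709 gene model.

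Zinc finger genes and their neighbours were then compared gene by gene. Over all 20163 coding genes of the genome, 3.97% shared at least 1 base with a PRO peak, 21.0% with an RS peak and 18.3% with a DiffBind region. Of the 26 zinc finger genes of the window, 14 met a PRO peak (53.8%), 25 an RS peak (96.2%) and 23 a DiffBind region (88.5%). Over all 566 zinc finger genes of the genome these shares were 29.9%, 64.5% and 55.8%. Of the 14 housekeeping genes 0 met a PRO peak, 2 an RS peak and 2 a DiffBind region. Of the 9 other named coding genes 0 met a PRO peak, 2 an RS peak and 1 a DiffBind region. Longer genes have more room to share 1 base. The median gene length was 21720 bp for zinc finger, 8331.5 bp for housekeeping and 6757 bp for other named genes. The effect of length on these counts was not tested. A further 11 coding models without a gene symbol are mostly read-throughs over zinc finger genes and were kept apart, with 8 of 11 met by an RS peak. When whole regions were left out for a single 75-base window found elsewhere in the genome, a rule that drops long regions more often, 16 zinc finger genes met an RS peak, 6 a PRO peak and 5 a DiffBind region.

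By covered bases the separation was wider than by counts. RS peaks covered 36.7% of the pooled zinc finger gene bodies, 0.779% of the housekeeping bodies and 1.97% of the other named bodies. PRO peaks covered 2.61% of the zinc finger bodies and no base of the housekeeping and other named bodies. The mark was not confined to gene bodies. Outside named coding genes, RS peaks covered 27.2% of bases and PRO peaks 0.814%. That DNA held 35.4% of the RS bases of the window, and 69 of the 200 RS peaks lay in no named coding gene. The median zinc finger gene had 41.1% of its body in RS peaks, with a range from 0 to 80.8%, and 1.27% in PRO peaks, with a range from 0 to 17.8%. Of the 25 genes without the read-through, 22 had at least 20% and 8 at least 50% of the body in RS peaks.

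ZNF844 (chr19:12175546-12192380, 16.8 kb) had the highest share in both states, 80.8% in RS and 17.8% in PRO. ZNF491, a short gene of 12.0 kb, had 77.3% in RS and 3.35% in PRO. ZNF44, whose gene model of 70.2 kb is the longest of the zinc finger genes, had 64.0% in 26 RS peaks but only 0.856% in 1 PRO peak. Most of these RS peaks and the PRO peak lay outside its coding transcript, whose introns were 39.4% in RS peaks. The ranking went on with ZNF69 at 63.8%, ZNF433 at 59.3%, ZNF564 at 54.3%, the ZNF625-ZNF20 read-through at 52.3%, ZNF136 at 51.8%, ZNF441 at 50.4% and ZNF700 at 45.9%. A further 11 zinc finger genes of the array, between ZNF440 and ZNF709, had 21.0% (ZNF709) to 45.1% (ZNF625). Among them, ZNF20 had 22.3% of a 47.5 kb gene model that reaches beyond its coding transcript. In that transcript, 70.1% of intron bases and 100% of the last coding exon lay in RS peaks. Over the 25 genes Spearman's rho between gene length and the RS share was -0.15. The number of fingers was as little related to the RS share of the body, with rho 0.027. Both are descriptions over genes that share 1 list per state and partly their sequence.

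The genes outside and at the ends of the array were looked at next. ZNF653, which encodes 3 fingers without a TGEKP linker and lies among ECSIT and its neighbours rather than in the array, met none of the lists. ZNF627 and ZNF823, the first genes of the array, had 5.69% and 19.2% of the body in RS peaks and no PRO peak. ACP5, the gene of an acid phosphatase of osteoclasts and macrophages, lies within the body of ZNF627 on the other strand and met none of the lists. At the far end, ZNF490 had 22.8% in RS and 7.51% in PRO, and ZNF791 had 35.8% in RS and 16.6% in PRO. The genes with the highest numbers of PRO bases were ZNF490, ZNF791 and ZNF844. After these came ZNF439 with 5.72% of the body in PRO peaks, ZNF709 with 2.66%, ZNF69 with 4.53%, ZNF441 with 7.03%, ZNF20 with 1.69%, the ZNF625-ZNF20 read-through with 3.26% and ZNF700 with 3.12%. The ZNF490 model encloses ZNF791, so a pair of PRO peaks (chr19:12735601-12738401 and chr19:12740201-12741201) counts for both.

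**Figure D2:**
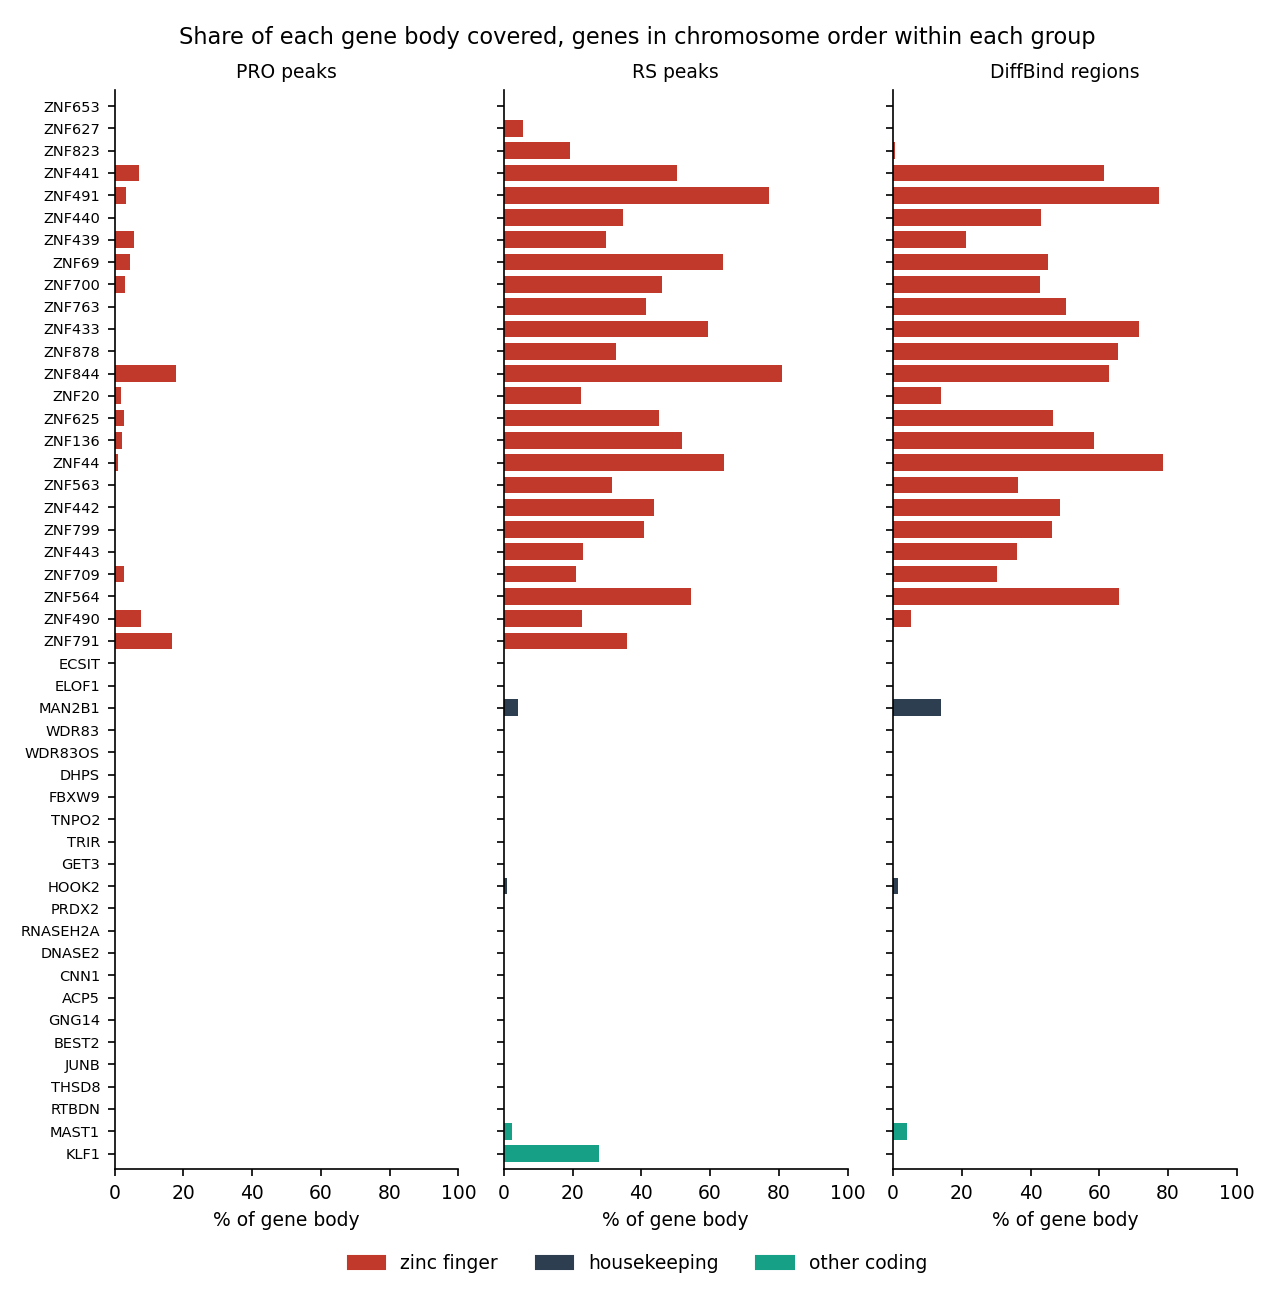
Share of each gene body (horizontal axes, % of bases) in PRO peaks, RS peaks and DiffBind regions, 1 bar per gene, coloured by group and in chromosome order within the group. RS bars are present for 24 of the 25 zinc finger genes and reach 80.8%, PRO bars stop at 17.8%, and 12 of the 14 housekeeping genes have no bar in any panel.

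The neighbours that did meet the mark met little of it. MAN2B1, a lysosomal mannosidase gene next to the array, had 3.96% of its body in 1 RS peak over intron and exon bases (chr19:12760401-12761201) and 13.8% in a DiffBind region. MAST1, a kinase gene, had 2.44% in RS peaks and 3.91% in DiffBind regions. HOOK2, whose 110 kb model overlaps MAST1, had 0.913% in the same RS bases. KLF1 differed from these, with 27.6% of its 2.78 kb body in 1 RS peak (chr19:12994401-12996001) that took in its whole last coding exon. No DiffBind region and no PRO peak touched KLF1. The 12 housekeeping genes with no region in any list were ECSIT, ELOF1, WDR83, WDR83OS, DHPS, FBXW9, TNPO2, TRIR, GET3, PRDX2, RNASEH2A and DNASE2. With RS peaks under 1000 bp left out, no housekeeping gene kept an RS peak and 1 other named gene did.

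Non-coding genes were counted in the same way. Over the genome, 2.14% of lncRNA genes met a PRO peak and 16.7% an RS peak. In the window, of 22 long non-coding RNA genes, 12 met an RS peak and 2 a PRO peak. For pseudogenes the shares over the genome were 1.32% and 7.97%. In the window, of 26 pseudogenes, 12 met an RS peak and 0 a PRO peak. Zinc finger pseudogenes differed among themselves. RS peaks covered 90.7% of ZNF887P and 50.6% of ZNF833P but 3.90% of ZNF788P. The lncRNA gene ZNF433-AS1, which is antisense to ZNF433, had 44.3% of its 58659 bases in RS peaks. A row of 4 nuclear copies of mitochondrial genes inside the array (MTND2P40, MTCO1P27, MTCO2P27 and MTATP6P27, chr19:12613489-12618844) met none of the lists. They lay in the 35.2 kb gap without an RS peak inside the ZNF709 gene model.

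The position of the mark inside the 25 zinc finger genes was then described in each state. The PRO side rests on only 21 peaks in zinc finger genes, and a difference in position between the states was not tested. In RS, 83.0% of the bases of their last coding exons lay in peaks, against 32.9% of intron bases. The RS share of the last coding exon was above that of the introns in 23 of 25 genes, and 10 last coding exons were covered from end to end. RS peaks also covered 71.8% of the 3′ untranslated exon bases and 30.8% of the remaining exon bases. In PRO the order was different: 0.521% of last coding exon bases, 3.24% of intron bases and 9.22% of 3′ untranslated bases lay in peaks. A PRO peak entered the last coding exon of 1 gene, ZNF709, of which it covered 10.9%. Of the PRO bases in these gene bodies, 69.8% lay in introns and 18.7% in 3′ untranslated exon bases. The RS share of last coding exons was 3.59% when any region that held a repeated 75-base window was dropped, whereas leaving out only the repeated bases themselves gave 83.1%.

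Along the gene the RS share was higher towards the end than at the start. Within 2000 bp of the gene start, RS peaks covered 4.99% of bases and met 5 of 25 genes. Within 2000 bp of the gene end they covered 61.6% and met 22 genes. Averaged over the genes, the RS share was 18.2% in the 10 kb upstream, 14.3% over bins 1 to 5 of the body, 63.7% over bins 16 to 20, and 38.4% in the 10 kb downstream. The upstream and downstream windows reach into neighbouring genes of the array. PRO shares stayed between 0.561% and 4.62% in all these parts. ZNF709 had the highest RS share within 2000 bp of the start, 83.3%, and ZNF844 followed with 33.6% in RS and 28.6% in PRO. Starts and ends here are those of the gene model. For ZNF709, the RS peak across that start (chr19:12622001-12625201) lay outside the coding transcript used, so its value does not describe the start of that transcript.

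**Figure D3:**
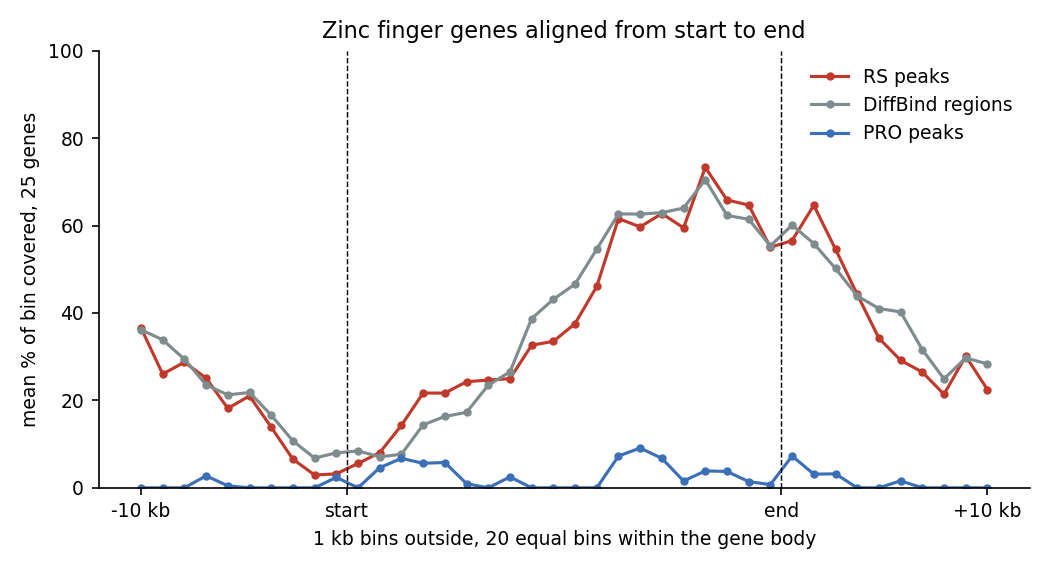
Mean share of each bin (vertical axis, %) in RS peaks, DiffBind regions and PRO peaks over the 25 zinc finger genes, aligned on the strand of the gene (horizontal axis, 10 bins of 1 kb on either side and 20 equal bins in the body). The RS and DiffBind lines lie near their lowest point at the gene start and rise along the body to 63.7% and 62.7% over bins 16 to 20, while the PRO line stays low.

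Linker codons were then located in the sequence. The codon strings for TGEKP were counted on both strands, with every synonymous codon allowed. A string split by an exon junction was missed. The window held 235, of which 174 lay in last coding exons of the zinc finger genes and 0 in other named coding genes. RS peaks held 186 of them (79.1%), PRO peaks 1, DiffBind regions 180, and 15 lay in no list. Per kb of sequence, this was 0.491 in RS peaks, 0.0471 in PRO peaks and 0.0160 outside the lists, against 0.0297 over the rest of chromosome 19. The base composition moved less. GC content was 45.3% in RS peaks, 49.1% in PRO peaks and 46.6% over the window, and 54.0% in the named coding genes outside the family.

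Each PRO peak was followed into RS. Of the 26 PRO peaks, 25 shared bases with an RS peak (96.2%), compared with 255 of 350 (72.9%) over chromosome 19. RS peaks held 91.5% of the PRO bases, and PRO peaks held 5.13% of the RS bases. When at least 50% of both regions had to be shared, 15.4% of the PRO peaks still had an RS partner. The single PRO peak without RS partner lay in an intron of ZNF439 (chr19:11963401-11964601). The longest PRO peaks, 2801 bp each, lay in introns of ZNF844 and ZNF791. No PRO peak lay in a named coding gene outside the zinc finger family: 21 fell in zinc finger genes and 5 in no named coding gene.

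The DiffBind list was then set beside the peaks. It was made from the same 4 samples, so its overlap with the peaks is partly fixed by construction and is no independent support. Of the 200 RS peaks, 158 (79.0%) overlapped the DiffBind list, every one of them over its full length, compared with 1750 of 3098 (56.5%) over chromosome 19. Of the 100 DiffBind regions, 93 met an RS peak, 13 also met a PRO peak, and 7 met neither. Over chromosome 19, 85.9% of DiffBind regions met an RS peak and 5.93% a PRO peak. RS peaks over a PRO peak met a DiffBind region in 13 of 23 cases (56.5%), and RS peaks over no PRO peak in 145 of 177 (81.9%). PRO peaks met one in 13 of 26 cases (50.0%), and in 101 of 350 (28.9%) over chromosome 19. Since the list gives no direction, whether the mark rose or fell in these regions cannot be read from it. Over the genome, the study reports that the great majority of regions in its longer list were more enriched in RS.

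The genes at both ends of the array stood apart in this list. ZNF627 and ZNF791 met no DiffBind region, and ZNF823 and ZNF490 had 0.688% and 5.32% of the body in one, although all 4 had an RS peak over 82.4% or more of the last coding exon. These are the first and the last pair of genes in the array, singled out after their values were seen. The pseudogenes ZNF887P and ZNF833P, between ZNF627 and ZNF823, had 100% and 72.5% of their bodies in DiffBind regions. ZNF564 showed the opposite at its last coding exon, which lay wholly in a DiffBind region and outside the RS peaks, though 54.3% of its body lay in RS peaks. ZNF439 had 93.7% of the last coding exon in RS peaks and 0% in DiffBind regions.

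Compared with 3 other zinc finger clusters of chromosome 19, the RS shares of the whole window lay close together and those of single gene parts lay further apart. RS peaks covered 27.0% of the 19p13.2 window, 22.9% of the more telomeric 19p13.2 cluster (9.2 to 10.0 Mb), 21.9% of the 19p12 cluster (20.0 to 24.4 Mb) and 25.9% of the 19q13.12 cluster (35.5 to 38.3 Mb). Of zinc finger gene bases, RS peaks covered 36.7% in the window, against 39.7%, 29.3% and 43.7% in the other clusters in the same order. For introns of these genes the RS shares were 32.9% against 38.9%, 31.4% and 43.8%. On both measures the window was not the highest. RS peaks met 12 of 12, 33 of 33 and 28 of 29 zinc finger genes of the other clusters. The RS share of last coding exons was 83.0% in the window, 59.2% in the more telomeric cluster, 19.1% in 19p12 and 60.2% in 19q13.12. Within 2000 bp of gene starts the window had the lowest RS share of the 4, 4.99% against 29.7%, 21.6% and 25.9%. RS peaks were longest in the window, with a median of 1401 bp against 1201, 801 and 1001 bp. The ratio of RS to PRO coverage of the whole window was 17.8, 17.2, 33.9 and 6.11 in the same order. It takes in DNA outside the zinc finger genes: in 19q13.12, PRO peaks covered 4.24% of the window but 1.73% of zinc finger gene bases. Of zinc finger gene bases alone, PRO peaks covered 2.61%, 1.68%, 1.09% and 1.73%, the highest share being that of the window analysed. With 1 list per state these differences between clusters were not tested.

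**Figure D4:**
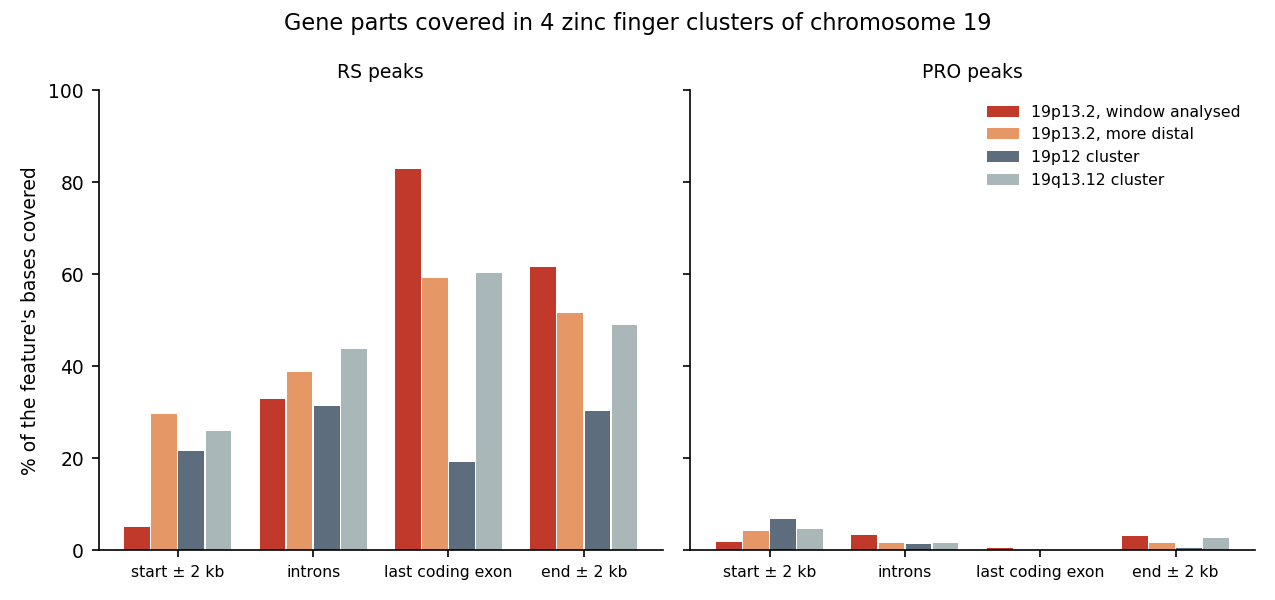
Share of bases (vertical axis, %) in RS peaks (left) and PRO peaks (right) for 4 parts of the zinc finger genes, in the window analysed and in 3 other clusters, without read-through genes. For RS, the window has the highest bar at last coding exons (83.0%) and the lowest at gene starts (4.99%), and no PRO bar exceeds 6.68%.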

How the data were processed

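H4K20me3 was profiled by ChIP-seq in IMR90 cells, 2 antibodies in each of 2 states (4 samples). The authors trimmed reads with Trim Galore (0.3.0), aligned them to hg19 with Bowtie2 (2.1.0) and called broad domains with SICER (1.1) in windows of 200 bp against a histone H4 control. They intersected the domains of both antibodies, which leaves 1 list per state, so that a region had to be found with both. A further list was made with DiffBind (1.8.3). The methods and results name different count models for it, the deposited list is shorter than described, and every DiffBind value holds for this list alone. The deposited columns hold region starts and ends in bases (hg19, printed 1-based) and no signal, so depth within a region is unknown. The study reports read numbers and duplicate shares per sample, and both differed between the samples. Their effect on the lists and on the RS to PRO ratios was not tested.

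Covered bases were computed after merging, with 1 shared base counted as overlap. Genes came from GENCODE release 44 on GRCh37, which has the hg19 coordinates on chromosome 19. A gene belonged to the window if its midpoint lay in it. Zinc finger genes were those with a symbol of ZNF, ZFP, ZSCAN or ZKSCAN and a digit. Exons and introns came from the transcript with the longest coding sequence, and the stop codon was counted as untranslated. Gene bodies, starts and ends came from the gene model, which for some genes, among them ZNF44, ZNF709 and ZNF20, reaches beyond that transcript. Stretches of 75 bases were called repeated if found elsewhere on either strand. Short reads from such stretches can be placed at any copy. The housekeeping list was ECSIT, ELOF1, MAN2B1, WDR83, WDR83OS, DHPS, FBXW9, TNPO2, TRIR, GET3, HOOK2, PRDX2, RNASEH2A and DNASE2. GCDH, also listed, has its midpoint outside the window. Values are given for the 10 zinc finger genes with the largest RS share, those with most PRO bases, those without RS, and every neighbour with a region. The window, lists and rules were chosen with earlier results of these data known. Python (3.11.15), NumPy (2.4.6) and SciPy (1.17.1) were used, and the interval arithmetic was tested on simulated regions. No test was run, since no file holds values per sample. Alternatives dropped regions of 1 base, under 1000 bp or with repeated sequence, and varied the overlap and the gene rule.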

Additional observations from a re-analysis of the deposited data

How the results depend on the processing

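Of 68 alternative values for 14 results, 40 stayed within 1.5 times the reported count or ratio, or within the 95% Wilson interval of the reported share, which covers counting of bases or peaks only. Without regions under 1000 bp, PRO peaks numbered 7, zinc finger genes with a PRO peak 5, housekeeping genes with an RS peak 0 and other coding genes with an RS peak 1. The ratio of RS to PRO coverage was then 30.9, and the RS shares were 34.0% of zinc finger bodies, 82.5% of last coding exons and 29.6% of introns, with 1.52% of bodies in PRO. Without regions that hold a repeated 75-base window, 62 RS peaks, 7 PRO peaks and 17 DiffBind regions were left. RS, PRO and DiffBind regions then met 16, 6 and 5 zinc finger genes and RS peaks 1 housekeeping gene. The RS shares fell to 4.83% of bodies, 3.59% of last coding exons and 4.32% of introns, and the PRO share of bodies to 0.365%. Long regions are dropped more often by this rule, since 1 repeated window suffices. Leaving out only the repeated bases, an alternative chosen after seeing the data, gave 36.1% of bodies and 31.8% of introns in RS and 2.27% of bodies in PRO. Counting only genes wholly inside the window, which drops ZNF653, gave 38.0% of bodies, 83.4% of last coding exons and 34.8% of introns in RS and 2.71% of bodies in PRO. When 50% of both regions had to be shared, 15.4% of PRO peaks lay over an RS peak. Leaving out the 1-base regions, taking any base shared with the window, asking for 200 shared bases and leaving out the read-through gene (the last chosen after seeing the data) moved none of the values computed for them past these limits. No paired analysis was possible because each state is 1 merged list with no values per antibody, and for the same reason leaving out 1 antibody was not run.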

Other observations

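ZNF799 and ZNF443 are the zinc finger genes with the most repeated sequence: 21.9% and 21.7% of the 75-base windows of their bodies, and 17.9% and 18.2% of those of their last coding exons, occur elsewhere in the genome. RS peaks covered 40.9% and 23.0% of their bodies and 100% and 65.5% of their last coding exons. How far reads were shared between such copies was not tested.

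No linker codon string was found in KLF1 or ZNF653, although a string split by an exon junction is missed by this search. The last coding exon of KLF1 lay wholly in an RS peak and that of ZNF653 in none. Both genes were singled out after their values were seen.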
